A study of Mus musculus with 313 samples.

Results

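H19, Igf2, Cdkn1c and Igfbp4 are 4 imprinted or insulin-like growth factor (IGF) genes. They stood on a panel of 100 quantitative RT-PCR assays run on single lymphoid precursor cells of mouse fetal liver at embryonic day 15. The 4 genes were chosen by their values in this same table, namely the share of cells that detected them in each group and sort, their level in detecting cells, the difference of the sorts for Igfbp4, and the correlation with H19 across cells. These values are therefore given as a description, and no test of them is reported; intervals beside them describe counting error. Livers were pooled before sorting, the sources used here give no mouse strain, and all groups shared a Lin- IL7Rα+ α4β7+ gate. Within it, α4β7+ lymphoid precursors (aLP) lacked PLZF and CXCR5, and precursors common to innate lymphoid cells (ILCs), called ILCP, had PLZF. Precursors of lymphoid tissue inducer cells (LTiP) had CXCR5 but lacked PLZF. The number 2 or 3 in each cell's name was taken as the sort, which gave 5 pools: 54 aLP cells of sort 2, 92 aLP cells of sort 3, 62 ILCP cells of sort 2, 90 ILCP cells of sort 3 and 14 LTiP cells of sort 3.

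H19 is a noncoding RNA transcribed from the maternal chromosome, and its neighbour Igf2, a fetal growth factor, is transcribed from the paternal chromosome; a shared control region decides which of them the common enhancers reach. IGF2 signals through the IGF1 receptor and is cleared by the IGF2 receptor. Cdkn1c encodes p57, an inhibitor of cyclin-dependent kinases that is transcribed from the maternal chromosome and is known for holding blood stem cells out of the cell cycle. Igfbp4 encodes a secreted protein that binds IGFs and is not imprinted. In the mouse gene table of assembly GRCm38.p6 the first 3 genes lie on chromosome 7, with 0 protein-coding genes starting between H19 and Igf2 and 8 between Igf2 and Cdkn1c, whereas Igfbp4 lies on chromosome 11. A list of 36 names of imprinted genes, with Meg3 also under its other name Gtl2, and a list of 25 IGF axis genes were used. Neither list was taken as complete. Of these the panel held 3 imprinted genes (H19, Igf2 and Cdkn1c) and 2 IGF axis genes (Igf2 and Igfbp4). No receptor of IGF2 was on the panel.

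H19 has no protein product, but its transcript holds the hairpin of miR-675. The mature sequences are shown to identify what the H19 RNA carries, with the seed (bases 2 to 8) in capitals. They are RefSeq's, on chromosome 7 of GRCm38.p6, minus strand (chr7:142577112-142577133 and chr7:142577078-142577099). The assays measured the long transcript, and the 2 mature forms were not measured.
mmu-miR-675-5p: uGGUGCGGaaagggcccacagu
mmu-miR-675-3p: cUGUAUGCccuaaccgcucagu

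The promoters of Igf2 and Igfbp4 are shown because the assays closest to these genes from cell to cell, described further on, include transcription factor genes: Rora and Rxrg, of nuclear receptors, for Igf2, and Sox4 and Tcf3, of an HMG-box factor and an E protein, for Igfbp4. The motifs of these families were picked after those values were seen. RefSeq gave 4 start sites for Igf2 and 1 for Igfbp4, and the 250 bases before each were searched on both strands. The motif AGGTCA, the core that ROR and RXR proteins bind, is in capitals for Igf2 (chr7:142666817-142667066, minus strand, the farthest upstream start site), where it occurs 1 time, on the opposite strand. The windows of the other 3 Igf2 start sites did not hold these letters, and 14.0% of 32851 windows of this length did. The motif CANNTG, the E-box that E proteins bind, is in capitals for Igfbp4 (chr11:99040994-99041243, plus strand), where it occurs 1 time; 66.2% of windows held it. The printed Igf2 window also holds CANNTG 2 times, and the Igfbp4 window does not hold AGGTCA. The SOX motif ACAATG, held by 10.7% of windows, is in neither printed window and occurs 1 time before the second Igf2 start site. Which start site these cells used was not measured.
Igf2: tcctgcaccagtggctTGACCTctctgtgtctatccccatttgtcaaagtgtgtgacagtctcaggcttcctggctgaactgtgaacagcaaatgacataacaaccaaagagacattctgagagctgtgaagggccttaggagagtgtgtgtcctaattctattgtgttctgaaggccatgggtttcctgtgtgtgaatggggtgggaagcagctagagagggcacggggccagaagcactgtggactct
Igfbp4: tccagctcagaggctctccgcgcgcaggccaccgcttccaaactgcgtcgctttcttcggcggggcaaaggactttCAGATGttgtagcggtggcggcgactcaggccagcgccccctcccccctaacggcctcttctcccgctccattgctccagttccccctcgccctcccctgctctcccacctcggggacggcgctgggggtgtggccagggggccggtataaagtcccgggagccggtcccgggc

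A gene was called detected in a cell when its Ct, the PCR cycle at which the signal crossed the threshold, was below 24, and its level was 24 minus the Ct, so that 1 unit is 1 cycle, or about a doubling of cDNA. In the cells used, 429 Ct values of the 4 genes lay below this limit, the highest at 23.2, and 10 lay above it, the lowest at 24.6. Only 14 of the 429 lay between 20 and 24. The pools differed in how many assays a cell detected, with a mean of 32.2 and 28.2 in aLP cells of sorts 2 and 3, 40.7 and 40.8 in ILCP cells and 33.6 in LTiP cells. The gate genes followed the labels in part: Zbtb16, which encodes PLZF, had a Ct below the limit in 93.5% and 96.7% of ILCP cells, 20.4% and 3.3% of aLP cells and 7 of 14 LTiP cells. Cxcr5 was detected in 12 of 14 LTiP cells, in 25.9% and 7.61% of aLP cells and 38.7% and 45.6% of ILCP cells. No 2 cells had the same profile. The aLP pool of sort 2 stood apart in other ways. The housekeeping assay Tbp was detected in 0 of its 54 cells, against 47 of 92 aLP cells of sort 3. In ILCP cells of sorts 2 and 3 it was 30 of 62 and 57 of 90. The Actb level had an SD over cells of 2.61 cycles in aLP of sort 2, and 0.73 to 1.17 in the other aLP and ILCP pools. The aLP cells of sort 2 detected 8 to 45 assays. The part of these differences in the results was not tested. Intervals given with shares are exact Clopper-Pearson 95% intervals; the limit given with a count of 0 is instead 3 cells of the total, where the exact interval, as drawn in the plot of shares, reaches 23.2% for 0 of 14 and 6.6% for 0 of 54. All of these, and the Newcombe intervals of differences, cover counting error within a pool only.

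H19 was detected most often in ILCP cells. It was found in 31 of 62 ILCP cells of sort 2 (50.0%, 37 to 63) and in 63 of 90 of sort 3 (70%, 59.4 to 79.2). In aLP cells it was found in 19 of 54 of sort 2 (35.2%, 22.7 to 49.4) and in 20 of 92 of sort 3 (21.7%, 13.8 to 31.6). It was found in 0 of 14 LTiP cells, which allows a share of up to 21.4%. Both ILCP pools lay above both aLP pools, but the gap was 14.8 percentage points in sort 2 and 48.3 in sort 3, a mean of 31.5 ± 23.6 (SD, n = 2 sorts).

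Igf2, the growth factor gene next to H19, was close to silent outside ILCP cells. It was detected in 13 of 62 ILCP cells of sort 2 (21%, 11.7 to 33.2) and in 25 of 90 of sort 3 (27.8%, 18.9 to 38.2). Of the aLP cells, 0 of 54 in sort 2 detected it, which allows up to 5.56%, and 2 of 92 in sort 3 (2.2%, 0.264 to 7.63). None of the 14 LTiP cells did, which allows up to 21.4%. The difference between ILCP and aLP was 21 points in sort 2 and 25.6 in sort 3 (23.3 ± 3.28, SD, n = 2 sorts), the closest match of the sorts among the 4 genes. The last number in a cell's name was divided into ranges of 96, whose meaning the labels do not give. In ILCP of sort 2, Igf2 was detected in 8 of 52 cells (15.4%) of the first range and 5 of 10 of the second. The aLP cells of sort 2 were all in the second range, and within it the mean difference between ILCP and aLP was 40.9 points.

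Cdkn1c, the cell cycle inhibitor gene, had a small difference between ILCP and aLP in sort 2 and a larger one in sort 3. It was detected in 33.9% of ILCP cells of sort 2 (21 of 62, 22.3 to 47.0) and 40.0% of sort 3 (36 of 90, 29.8 to 50.9). In aLP cells the shares were 29.6% in sort 2 (16 of 54, 18 to 43.6) and 13% in sort 3 (12 of 92, 6.93 to 21.7), and 1 of 14 LTiP cells detected it (7.14%, 0.181 to 33.9). The ILCP pools lay above the aLP pools, by 4.24 points in sort 2 and 27 in sort 3. The mean difference, 15.6 points, was no larger than its SD over the sorts, 16.1.

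Igfbp4, which encodes the IGF-binding protein, had opposite orders in the sorts. It was detected in 79.6% of aLP cells of sort 2 (43 of 54, 66.5 to 89.4) and 46.7% of sort 3 (43 of 92, 36.3 to 57.4). In ILCP cells the shares were 30.6% in sort 2 (19 of 62, 19.6 to 43.7) and 71.1% in sort 3 (64 of 90, 60.6 to 80.2). In LTiP cells it was 7.14% (1 of 14, 0.181 to 33.9). ILCP lay 49 points below aLP in sort 2 (a difference of -49) and 24.4 above it in sort 3, so that the mean, -12.3 ± 51.9 points (SD, n = 2 sorts), describes neither.

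**Figure D1:**
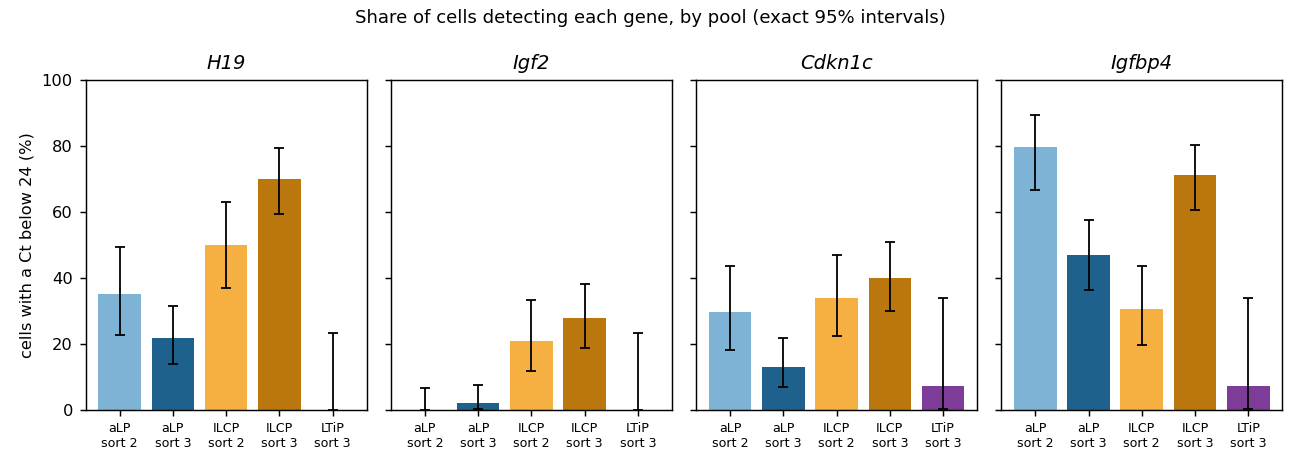
Share of cells with a Ct below 24 (percent, vertical axis) for H19, Igf2, Cdkn1c and Igfbp4 in the 5 pools; bars are shares and error bars exact 95% binomial intervals. H19, Igf2 and Cdkn1c stand higher in both ILCP pools than in both aLP pools, while for Igfbp4 the aLP pool of sort 2 (79.6%) and the ILCP pool of sort 3 (71.1%) are the highest.

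The separation of pools has to be read against the whole panel. Both ILCP pools lay above both aLP pools for 3 of the 4 genes, and for 47 of the 91 assays tested (51.6%), a share that also covers the larger number of assays detected in ILCP cells. An assay was tested when 5% or more of the cells in some aLP or ILCP pool had it, and all 4 genes were among them. In the comparison of ILCP with aLP over the mean levels of the 4 pools (limma, Benjamini-Hochberg adjustment over all 91), 6 assays had an adjusted p under 0.05 (6.59%), 5 higher in ILCP (5.49%) and 1 lower (1.1%). At an unadjusted p under 0.05 there were 27 of 91 assays (29.7%). Calls on the 4 genes are not given, since they were chosen by values of this same contrast. On this scale, where cells without the gene count as 0, the mean ILCP minus aLP difference was 2.57 cycles for H19, 1.83 for Igf2, 1.00 for Cdkn1c and -0.39 for Igfbp4, beside a median of 0.54 over the 91 assays.

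No other gene of the imprinted and IGF lists could be set beside these 4, so related lists were used. Of 5 further cell cycle and growth control genes tested, among them Bcl2, Foxo1, Myc and Tsc22d3, 0 passed in limma and 0 had an unadjusted p under 0.05; their median difference was 0.82. Of 13 ILC precursor factor genes, 4 passed, all higher in ILCP (Zbtb16, the gate gene, with Tcf7, Ets1 and Rora), and the median was 1.72. For 8 LTi genes the calls were 0, with 2 at an unadjusted p under 0.05 and a median of 0.42. The 4 housekeeping assays gave 0 calls, 1 at an unadjusted p under 0.05, and a median of 0.74. Of 21 genes marking other cells of the fetal liver, such as hepatocytes, stroma and red cell precursors, the panel held Itga2b alone, the αIIb integrin gene of megakaryocytes. For Itga2b the shares were 22.6% and 34.4% in ILCP, 1.85% and 1.09% in aLP and 0 of 14 LTiP cells, an order close to that of Igf2; its difference was 1.44 (adjusted p = 0.07 in limma). Hepatocytes and stroma, which transcribe H19 and Igf2 in the fetal liver, lie outside the Lin- IL7Rα+ α4β7+ gate; they had no marker on the panel, and their part in the result was not tested.

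Among cells that detected H19, the level reached higher in ILCP. Its Ct ran from 13.2 to 19.5 with a median of 17.8 in ILCP cells of sort 2 and from 12.6 to 23.2 with a median of 16.7 in sort 3. In aLP cells it ran from 16.6 to 19.5 (median 18.1) in sort 2 and from 17 to 19.9 (median 19.4) in sort 3. The mean level in detecting cells was 6.62 ± 1.73 and 7.11 ± 1.98 cycles in ILCP and 5.83 ± 0.88 and 5.04 ± 1.01 in aLP (SD over cells, 31, 63, 19 and 20 cells). The difference was 0.78 in sort 2 and 2.06 in sort 3. A Ct below 16, a line drawn after the values had been seen, was reached by 5 of 62 ILCP cells of sort 2 (8.06%) and 24 of 90 of sort 3 (26.7%), and by 0 of 54 and 0 of 92 aLP cells. The ILCP cells with the most H19 thus lay beyond the range of the aLP cells.

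Igf2 had a larger SD over detecting cells than H19 in both ILCP pools. Its Ct ran from 12 to 19 (median 17.3) in 13 ILCP cells of sort 2 and from 11.8 to 19.4 (median 16.2) in 25 of sort 3, whereas the 2 aLP cells that detected it had a Ct of 19.2. In the ILCP cells of sort 3, 12 of the 25 had a Ct below 16, as had 4 of the 13 in sort 2. The mean level in detecting cells was 7.20 ± 2.30 in sort 2 and 8.11 ± 2.49 in sort 3 (SD over cells).

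The levels of Cdkn1c and Igfbp4 in detecting cells differed between ILCP and aLP by under 1 cycle in each sort. The median Cdkn1c Ct was 18.7 and 18.4 in ILCP, 19.3 and 19.2 in aLP, and 19.4 in the LTiP cell that had it. The mean level in detecting cells was higher in ILCP by 0.55 in sort 2 and 0.41 in sort 3; after scaling each cell to Actb, Gapdh and Hprt the differences were 0.45 and -0.35. A few cells stood apart with much Cdkn1c, the highest an ILCP cell of sort 3 at a Ct of 12.1 and an aLP cell of sort 3 at 13.5. The median Igfbp4 Ct was 18 and 17.5 in ILCP and 18.2 and 18.5 in aLP, and the mean level in detecting cells differed by 0.12 in sort 2 and 0.88 in sort 3. After the same scaling these were -0.42 and 0.52.

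**Figure D2:**
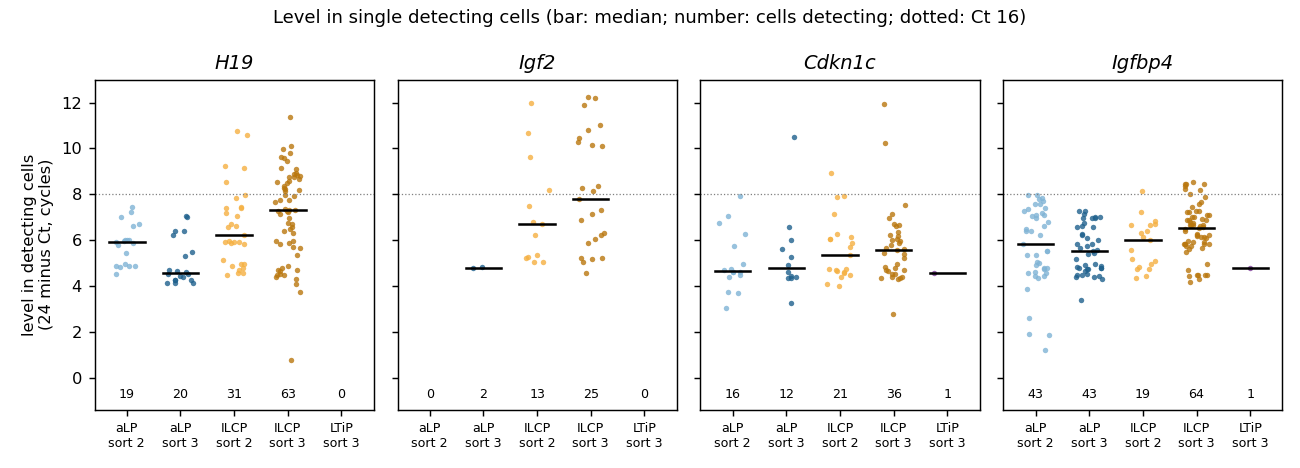
Level in each detecting cell (24 minus the Ct, in cycles, vertical axis) by pool; points are cells, bars medians, the numbers under them the cells detecting the gene, and the dotted line a Ct of 16. H19 passes the line in 29 ILCP cells and 0 aLP cells, and Igf2 is nearly confined to ILCP cells, where it reaches a Ct of 11.8.

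The difference of the sorts was examined for Igfbp4 because it ran opposite ways in the groups. From sort 2 to sort 3 its share differed by -32.9 points in aLP and by 40.47 in ILCP. H19 differed by -13.4 and 20 and Cdkn1c by -16.6 and 6.13, in the same opposite directions, while Igf2 differed by 2.2 and 6.81. Over the 91 assays the median difference was -1.85 in aLP and -1.61 in ILCP. An opposite sign in the groups was found for 36 of the 91 assays (39.6%). Differences over 20 points in opposite directions were found for 3 of them (3.3%), Igfbp4 and Sox4 among them; Sox4 is named here after its values were seen. By the size of the change in the ILCP minus aLP difference between sorts, Igfbp4 ranked number 1 of 91 with 73.4 points, H19 number 7, Cdkn1c number 15 and Igf2 number 65. With 1 pool per group and sort, this change has no replicate. It also rests on the aLP pool of sort 2, in which Tbp was not detected.

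The share of Igfbp4 was also taken within number ranges of cells. In ILCP of sort 2 the share was 30.8% in the first range (52 cells) and 30% in the second (10 cells). In ILCP of sort 3 it was 78.9%, 65.6% and 71.8% over the 3 ranges. In aLP of sort 3 it was 41.7%, 51.4% and 45.5%. In the second range alone the sorts differed by -28.2 points in aLP and 35.6 in ILCP. Among cells with at least 25 detected assays the values were -28.1 and 40.0, so the sort difference kept its opposite signs in both checks. The ILCP minus aLP difference in sort 3 was smaller in both checks than over all cells (24.4). In sort 3 of the second range, 21 of 32 ILCP cells (65.6%) and 18 of 35 aLP cells (51.4%) detected Igfbp4, with overlapping 95% intervals. The ILCP share of sort 2 in that range rests on 3 of 10 cells. The part of number range and of assays detected in the result was not tested.

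**Figure D3:**
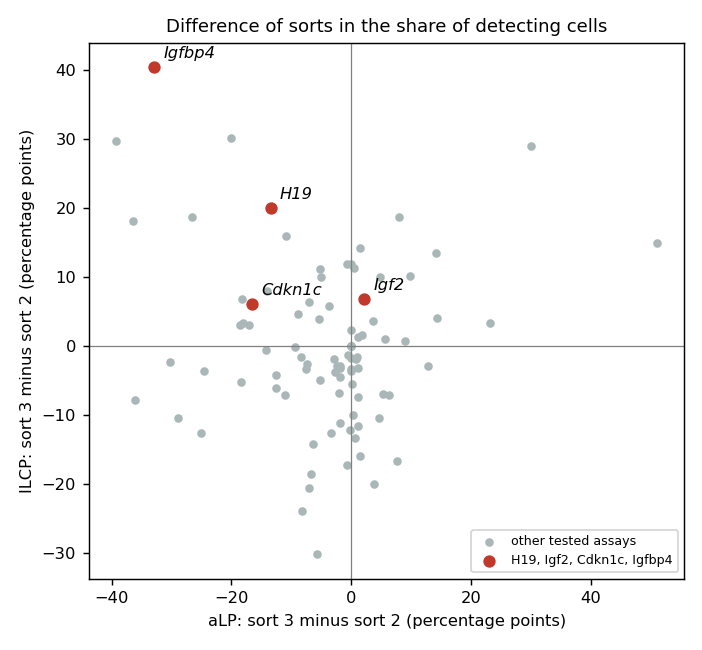
Difference of the sorts in the share of detecting cells (sort 3 minus sort 2, percentage points) in aLP (horizontal axis) against ILCP (vertical axis); each point is 1 of the 91 tested assays, with the 4 genes in red. Igfbp4 lies at the upper left (-32.9 and 40.47), above the nearest grey point, Sox4 (-39.3 and 29.7), with H19 and Cdkn1c in the same corner and Igf2 near the origin.

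LTiP cells seldom detected these transcripts at the limit of 24. In 12 of the 14 cells (85.7%) none of the 4 genes was detected, 1 cell detected Cdkn1c alone and 1 Igfbp4 alone. In sort 3, from which all LTiP cells came, the same was true of 4 of 90 ILCP cells (4.44%) and 39 of 92 aLP cells (42.4%); in sort 2 it was 15 of 62 ILCP cells (24.2%) and 8 of 54 aLP cells (14.8%). The LTiP share minus the ILCP share of sort 3 was -70 points for H19 (Newcombe 95% interval -78.5 to -46.2) and -63.97 for Igfbp4 (-74.2 to -37.6). For Cdkn1c the difference was -32.9 (-44.7 to -6.74) and for Igf2 -27.8 (-37.8 to -4.74). The median over the 91 assays was -6.67 points. The LTiP interval lay wholly below that of ILCP for H19 and Igfbp4, and for 13 of 91 assays (14.3%).

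Against aLP cells of sort 3 the differences were smaller. Igfbp4 differed by -39.6 points (-51.3 to -13.3), and its interval in LTiP lay wholly below that in aLP, as was found for 3 of 91 assays (3.3%). H19 differed by -21.7 (-31.2 to 0.965), Cdkn1c by -5.90 (-16.1 to 19) and Igf2 by -2.2 (-7.58 to 19.4). These 3 intervals include 0. All LTiP cells were in the first range. In the ILCP cells of sort 3 in that range, H19 was detected in 13 of 19 (68.4%) and Igfbp4 in 15 of 19 (78.9%), and in the aLP cells in 7 of 24 (29.2%) and 10 of 24 (41.7%). LTiP cells had higher mean housekeeping Ct values than ILCP cells of sort 3, 13.4 against 12.7 for Actb and 17.7 against 16.3 for Hprt. For aLP cells of sort 3 these were 12.6 and 17.6, and the part of this difference in the result was not tested.

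The 4 genes did not mark the same cells. In ILCP of sort 3, where they were most frequent, 31 of 90 cells detected 3 of them and 3 cells detected all 4; in sort 2, 7 of 62 detected 3 and 1 detected all 4. The 2 commonest combinations of 3 in sort 3 were H19, Cdkn1c and Igfbp4 (17 cells) and H19, Igf2 and Igfbp4 (14 cells), while no cell there held H19, Igf2 and Cdkn1c without Igfbp4. In aLP cells Igfbp4 alone was the commonest pattern with any of the genes, in 22 of 54 and 22 of 92 cells.

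Igf2 and Cdkn1c, both imprinted genes of chromosome 7, were seldom found in the same ILCP cell. In sort 3 they were detected together in 4 cells, where the product of their shares gives 10. In sort 2 this was 2 cells, where it gives 4.40. Igf2 and Igfbp4, which is not imprinted, also lay below that product in sort 2 (2 cells against 3.98). In sort 3 that pair lay close to it (18 against 17.8). Seen from Igf2, Cdkn1c was present in 4 of 25 cells with Igf2 (16%) and 32 of 65 without (49.2%) in sort 3, and in 2 of 13 (15.4%) and 19 of 49 (38.8%) in sort 2. Cdkn1c and Igfbp4 were found together more often than that product in ILCP of sort 2 (13 cells against 6.44) and in aLP of sort 3 (10 against 5.61), and close to it in ILCP of sort 3 (28 against 25.6) and aLP of sort 2 (13 against 12.7). H19 and Cdkn1c were found together in 11 aLP cells of sort 2 against 5.63, and within 2 cells of the product in the other 3 pools. Among ILCP cells of sort 3, 20 of the 25 with Igf2 also held H19 (80%), against 43 of 65 without Igf2 (66.2%); in sort 2 these were 8 of 13 (61.5%) and 23 of 49 (46.9%). The strongest cells overlapped in part, by the line of Ct 16 drawn after the values had been seen. Of the 12 ILCP cells of sort 3 with an Igf2 Ct below 16, 7 also had an H19 Ct below 16, as had 3 of 4 in sort 2. Over all cells of these pools, with or without H19, such an H19 Ct was found in 24 of 90 and 5 of 62. Among the 20 ILCP cells of sort 3 that detected both genes, Spearman's rho of their levels was -0.06.

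**Figure D4:**
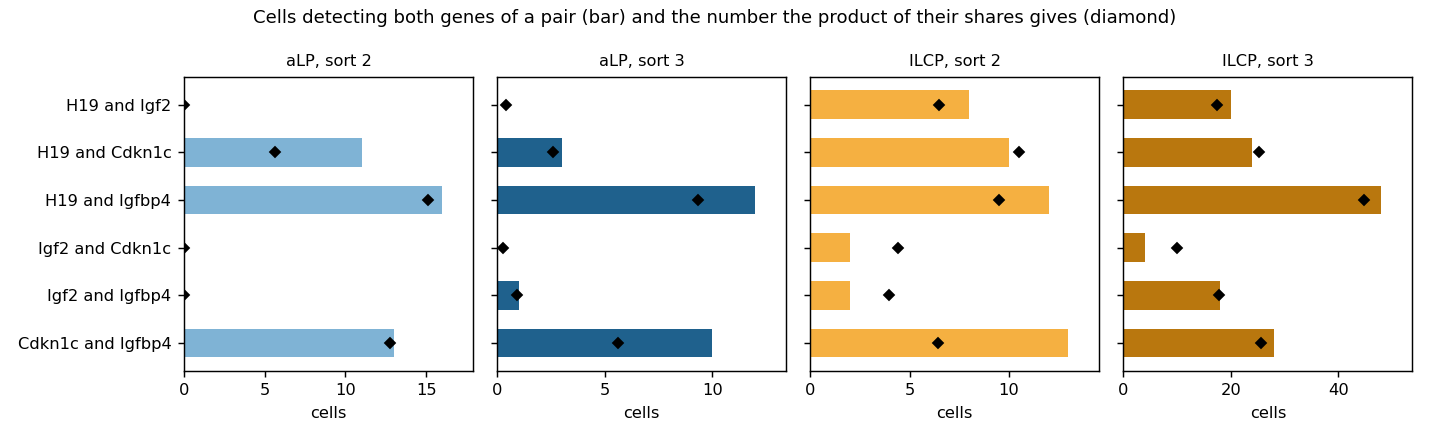
Number of cells detecting both genes of each pair (bars, horizontal axis) in the aLP and ILCP pools, with the number that the product of the 2 shares gives (diamonds). Igf2 with Cdkn1c lies below the diamond in both ILCP pools (2 against 4.40 and 4 against 10 cells), and Cdkn1c with Igfbp4 lies above it in ILCP of sort 2 (13 against 6.44).

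Correlations with the H19 level were taken over the cells of each pool, with non-detecting cells at 0; the cells of a pool share a sort, and a cell's values share its cDNA. Between H19 and Igf2, Spearman's rho was 0.18 over 62 ILCP cells of sort 2 and 0.42 over 90 of sort 3. Igf2 was too rare in aLP for a value. Between H19 and Igfbp4 it was 0.30 and 0.37 in ILCP and 0.04 and 0.21 in aLP (sorts 2 and 3, with 54 and 92 aLP cells). Between H19 and Cdkn1c it ran from -0.19 in ILCP of sort 3 to 0.44 in aLP of sort 2. Given the number of other assays a cell detected, the mean over pools was 0.29 for Igf2 (0.30 without this), 0.17 for Igfbp4 (0.23) and 0.04 for Cdkn1c (0.08). In cells that detected both genes rho was -0.06 for Igf2 over 20 ILCP cells of sort 3, and the 8 such cells of sort 2 were too few for a value. For Igfbp4 it was 0.32 over 48 such cells of that pool and -0.15 to -0.32 over 12 to 16 cells in each of the other 3.

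The assays closest to each gene were those with the highest mean rho over the aLP and ILCP pools. For Igf2, ranked over the 2 ILCP pools and 80 assays, these were Bcl11b (0.50 in both pools), Rora (0.38 and 0.52), Rxrg (0.44 in both), Ccr8 (0.45 and 0.38) and Ets1 (0.22 and 0.56). Bcl11b encodes a zinc finger factor of T lineage and group 2 ILC identity, Rora a nuclear receptor needed for group 2 ILCs, Rxrg a retinoid X receptor, Ccr8 a chemokine receptor and Ets1 a factor of lymphocyte development. Bcl11b was detected in 11 of the 13 ILCP cells with Igf2 in sort 2 (84.6%) and 17 of 25 in sort 3 (68%), against 11 of 49 (22.4%) and 12 of 65 (18.5%) of those without. Rora and Ets1 were detected in all 38 ILCP cells with Igf2, and also in most ILCP cells without it: 67.3% and 70.8% for Rora and 71.4% and 66.2% for Ets1 in sorts 2 and 3. At the other end stood Tsc22d3, a glucocorticoid-induced gene (-0.22 and -0.45), Bcl2, a survival gene (-0.43 and -0.15), and Cdkn1c (-0.21 and -0.31). H19 ranked number 9 for Igf2, and the median over the 80 assays was -0.02. The first 5 kept their order given the number of other assays detected.

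For H19 the closest of 83 assays were Megf10, which encodes an engulfment receptor (0.38 and 0.39 in the ILCP pools, with too few aLP cells), Tox, a factor needed for ILC precursors (0.51 and 0.43 in aLP, 0.33 and 0.15 in ILCP), Fgf15, a growth factor gene (0.27 and 0.42 in ILCP), Lmo4 (0.15 to 0.41) and Tcf7, a factor of early T cells and ILCs (0.18 to 0.46). Megf10 was detected in 13 of 31 ILCP cells with H19 (41.9%) and 5 of 31 without (16.1%) in sort 2, and in 34 of 63 (54%) and 5 of 27 (18.5%) in sort 3. These means are over the pools with enough cells, 2 for Megf10 and Fgf15 and 4 for the others. Within the ILCP pools alone the gate gene Zbtb16, number 7 by its mean over 3 pools, had higher values with H19 than Megf10 in both (0.50 and 0.54). H19 itself moved with the number of other assays detected, with rho of 0.28 and 0.31 in aLP and 0.14 and 0.45 in ILCP. Given that number, Fgf15 came first and Megf10 number 2, Tox was number 4, Igf2 number 5, Tcf7 number 8 and Lmo4 number 10. Lowest stood Irf8, a factor of myeloid and B cells (-0.37 and -0.31 in ILCP, -0.14 and -0.16 in aLP), then Notch1 (mean -0.16) and Tsc22d3 (-0.11). The median over assays was 0.09.

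Cdkn1c and Igfbp4 shared part of their closest assays. For Cdkn1c these were Tox (mean rho 0.42), the HMG-box factor gene Sox4 (0.38), Igfbp4 itself (0.32), Runx3 (0.32) and the α4 integrin gene Itga4 (0.30). For Igfbp4 they were Sox4 (0.45), the TNF receptor family gene Cd27 (0.40), Tcf3 (0.39), Tox (0.38) and Itga4 (0.36). Some of these means cover unlike pools. Cdkn1c with Igfbp4 had 0.52 and 0.11 in ILCP of sorts 2 and 3, and 0.28 and 0.37 in aLP. Igfbp4 with Itga4 had 0.53 in aLP and 0.57 in ILCP of sort 2, but 0.15 and 0.18 in sort 3. Within the ILCP pools alone Zbtb16, number 11 by its mean over 3 pools, had rho of 0.46 and 0.55 with Igfbp4, against 0.45 and 0.40 for Sox4. Sox4 was detected in 83.7% of aLP cells with Igfbp4 in sort 2 against 36.4% without, in 48.8% against 22.4% in sort 3, and in ILCP in 84.2% against 46.5% and 93.8% against 73.1%. The lowest for both included the lymphotoxin α gene Lta (-0.25 for Cdkn1c and -0.28 for Igfbp4) and Ccr8 (-0.24 and -0.22), with Igf2 (-0.26) for Cdkn1c and Ltb (-0.24) for Igfbp4. Bcl11b, the closest assay to Igf2, ranked number 79 of 83 for Cdkn1c and number 78 of 83 for Igfbp4. In aLP cells the levels of Cdkn1c and Igfbp4 also moved with the number of other assays detected, with rho of 0.38 and 0.44 for Cdkn1c and 0.37 and 0.47 for Igfbp4 in sorts 2 and 3, but in ILCP cells this was -0.14 to 0.10. Given that number, the mean rho was 0.37 for Igfbp4 with Sox4 and 0.34 for Cdkn1c with Tox.

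**Figure D5:**
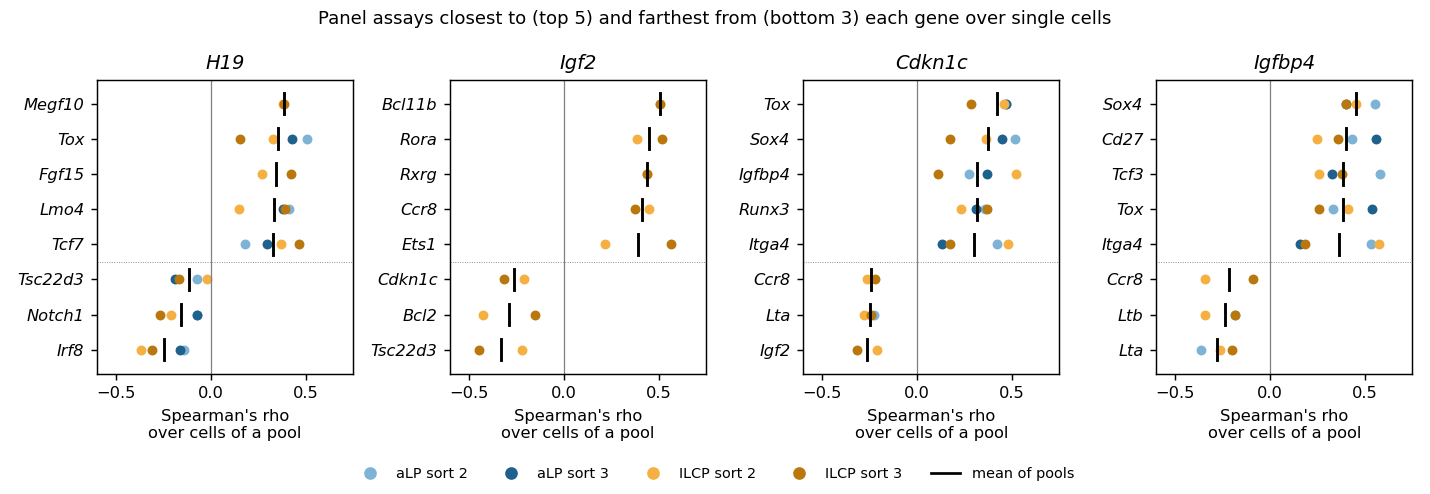
Spearman's rho over the cells of a pool (horizontal axis) between each of the 4 genes and the 5 assays closest to it (above the dotted line) and the 3 farthest from it (below); points are pools and black bars their means. Igf2 is drawn next to Bcl11b, Rora and Rxrg (means 0.50, 0.45 and 0.44) with Cdkn1c at the other end, and Cdkn1c and Igfbp4 both have Tox, Sox4 and Itga4 among the closest.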

How the data were processed

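Single sorted cells were reverse transcribed, preamplified for 22 cycles and run on a Biomark HD microfluidic system, per the labels' protocols. The deposited values are raw Ct values with no normalization, per the file headers; the sources used here do not say how missing values arose. The table held 313 cells, and 312 with at least 1 of the 4 housekeeping assays and at least 5 assays detected (Ct below 24) were used. No per-cell scaling was applied. The pool of 1 group and 1 sort was the replicate; pools may differ in technical ways, and cells were not counted as replicates. ILCP and aLP were compared with limma 3.58.1 in R 4.3.3 (lmFit, eBayes) on the 4 pool means, with group as the only term; the code was tested on simulated data. Correlations needed at least 5 detecting cells of each gene in a pool and at least 2 pools. The members, lists and tests were chosen with earlier results of these data known. Named assays were the 5 with the highest and the 3 with the lowest mean correlation per gene, with gate, housekeeping and list genes. Alternatives varied the detection limit, scaling, cells, filter, block and pools. Of the assay names, 98 matched the GRCm38.p6 gene table by symbol, the 4 genes among them. Promoter windows were found for Igf2 and Igfbp4. Figures were drawn with matplotlib 3.10.9 in Python 3.11.15. Some assays of the panel are counted but not reported by name here.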

Additional observations from a re-analysis of the deposited data

Results flagged for a closer look

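For 3 of the 4 genes the share of detecting cells differed between the sorts in opposite directions in aLP and ILCP, a difference that was not tested, since each group had 1 pool per sort. From sort 2 to sort 3, Igfbp4 differed by -32.9 points in aLP and 40.47 in ILCP, H19 by -13.4 and 20, and Cdkn1c by -16.6 and 6.13. For Igfbp4 the ILCP minus aLP difference also had opposite signs, -49 points in sort 2 and 24.4 in sort 3. Opposite signs of the sort difference were found for 36 of 91 assays (39.6%).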

How the results depend on the processing

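Detection limits of 22, 26 or none and cells with at least 25 detected assays were tried. The mean differences of share between ILCP and aLP over the sorts then kept their sign for all 4 genes. These means moved by less than their SD over the sorts. Single sorts did not all keep their sign. In cells with at least 25 detected assays Cdkn1c differed by 9.07 points on average, less than its SD, and its order was reversed in sort 2. Among cells in the second range of 96 numbers alone, Cdkn1c differed by 6.66 points on average (15.6 over all cells). In sort 2 of that range its order was reversed, with 20% of 10 ILCP cells and 29.6% of 54 aLP cells. Igf2 differed there by 40.9 points (23.3 over all cells). Its difference of sorts in ILCP was -12.5 (6.81 over all cells), from 10 cells in sort 2. Leaving out a sort gave 14.8 to 48.3 points for H19, 21 to 25.6 for Igf2, 4.24 to 27 for Cdkn1c and -49 to 24.4 for Igfbp4, whose sign turned without sort 2. The correlation with H19 in cells detecting both genes was -0.056 for Igf2, -0.072 for Cdkn1c and -0.11 for Igfbp4 (means over 1, 3 and 4 pools), and for Cdkn1c leaving out a sort gave -0.076 (without sort 2) to 0.24; the means over all cells were above 0. Except where a cause is named, the cause was not tested. The level of Igf2 with no limit differed by 6.32 cycles (3.3 with it), since 1 aLP cell with a Ct above 24 then entered sort 2, and that of Cdkn1c after housekeeping scaling by 0.05 (0.48 without).

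The count of assays past the threshold in limma, 6, was 12 with a limit of 26, 16 with none, 13 on shares of detecting cells and 11 with a 20% filter on assays. With the sort as a replicate block it was 2; pools of the same sort deviated from their groups with a correlation of -0.05 over assays, and the numbers were not taken to pair the pools. Leaving out 1 pool gave 0 to 20 calls: 20 when aLP of sort 2 was left out, and 0 when either ILCP pool was, with 19 and 23 assays at p under 0.05 before adjustment; the lone pool of a group is then assumed to vary like the other group. The 14 LTiP cells limit every LTiP share. In 2 of them the Igfbp4 Ct lay at or above 24, as in 1 aLP cell and 0 ILCP cells of sort 3. With no limit, the LTiP minus ILCP difference of Igfbp4 was -49.7 points (-63.97 with the limit of 24). The LTiP minus aLP difference was -26.4 (-39.6). For H19, Igf2 and Cdkn1c the LTiP minus ILCP differences with no limit were -71.1, -28.9 and -32.9.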
